A study of Mus musculus with 42 samples.

Results

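The genes described here encode the proteins that the visceral endoderm secretes or takes up, as an early counterpart of the plasma proteins of the liver. They were taken as a fixed list of 36 gene symbols, 36 of which were found among the 24225 genes of the deposited table. By role they comprise 7 carrier proteins (Afp, Alb, Ttr, Trf, Rbp4, Ambp, Hpx), 10 apolipoproteins and factors of lipoprotein assembly (Apoa1, Apoa2, Apoa4, Apob, Apoc2, Apoc3, Apoe, Apoh, Apom, Mttp), 10 proteins of clotting and clot removal (Fga, Fgb, Fgg, F2, F5, F10, Plg, Serpind1, Serpinf2, Kng1), 6 other secreted proteins (Ahsg, Fetub, Vtn, Itih2, C3, Igfbp1) and 3 genes of uptake (Amn, Cubn, Dab2).

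Polyadenylated RNA was sequenced, without strand information, from mouse embryonic stem cells (ESC) of C57Bl/6 background and from the embryoid bodies they form in suspension without leukaemia inhibitory factor. There were 4 lines, namely W1 and W2 of the wild-type (WT) and K1 and K3 labelled AMPK DKO, a double knockout (DKO) of the energy-sensing kinase AMPK. Cells had been freed of irradiated feeder cells over their last passages and were collected as ESC (day 0, 25 mM glucose) or as embryoid bodies on days 2, 4, 8 and 12 in 25 mM (high) or 2.5 mM (low) glucose, which gave 42 libraries, 22 of WT and 20 of DKO. The number of clones behind each line was not stated, and the line is the replicate, with 2 lines per genotype.

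Column headings and content disagreed in many libraries. The Y-linked gene Ddx3y and the imprinted RNA Meg3 separate the 4 lines, and the glucose-induced gene Txnip separates the media. In 15 libraries the heading went against the line markers, in 8 against Txnip, and in 5 of these against both. The comparisons below use the 24 libraries whose heading matched both (13 WT, 11 DKO). The other 18 were left out and none was moved to another group. The day of a heading was not checked by this match. In the matched set Prkaa2, which encodes an AMPK catalytic subunit, lay between 1.32 and 22.3 RPKM in WT and between 0.019 and 0.959 RPKM in DKO. RPKM is the read number scaled to transcript length and to library size, so that levels of different genes can be compared per length. Depths lay between 10500000 and 25500000 reads. Matching left W1 as the only WT line at low glucose days 8 and 12, K3 as the only DKO line at high glucose days 8 and 12, no high-glucose library of day 2, no WT library of ESC, and 1 DKO library headed ESC (K1).

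The visceral endoderm is the epithelium around the early embryo, and in embryoid bodies it forms the outer layer. It feeds the embryo before a placenta and a liver exist: it takes up maternal proteins through the receptor complex of cubilin and amnionless, digests them in lysosomes, and secretes carriers for lipids, retinol, iron and thyroid hormone. Many of its secreted products are later made by hepatocytes, under the control of the transcription factors of the HNF4 and FOXA families, which both tissues share.

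Transcripts of the list accumulated in wild-type embryoid bodies up to day 12. Their summed level was 5689 RPKM in W1 at low glucose, 8022 in W1 at high glucose and 11673 in W2 at high glucose, the last being 3.66% of all RPKM in that library. The DKO libraries of day 12 held 649 RPKM (K1, low glucose), 377 (K3, low glucose) and 2165 (K3, high glucose). At 1 RPKM or more were 31, 30 and 32 of the 36 genes in those 3 WT libraries and 19, 17 and 27 in the 3 DKO libraries. At day 2 in low glucose the sums were 1021 and 989 RPKM in W1 and W2 and 498 and 475 RPKM in K1 and K3, and Apoe alone made up between 91.7% and 96.2% of them.

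**Figure D1:**
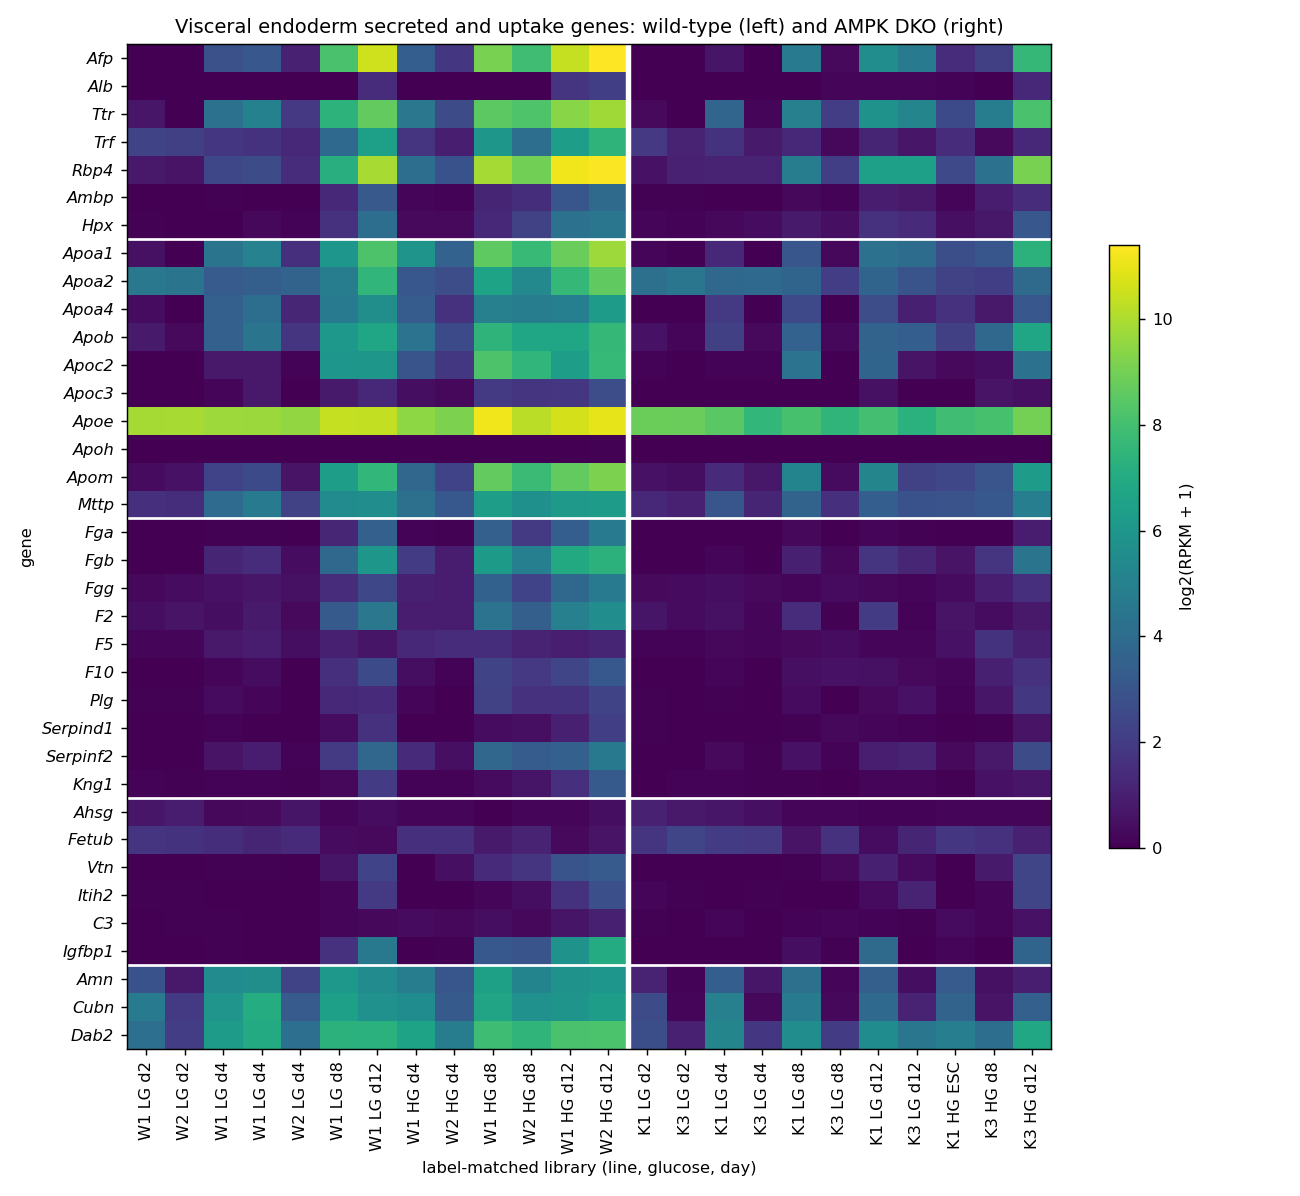
Level of each of the 36 genes (rows, by role) in each of the 24 label-matched libraries (columns, wild-type left of the thick line and DKO right), as log2(RPKM + 1) on a colour scale. Most rows brighten towards day 12 in the wild-type columns, Apoe is bright in every column, and Apoh, Ahsg and C3 stay dark throughout.

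Genes of uptake were measurable from day 2. Cubn, the ligand-binding receptor of the uptake complex, stood at 25.5 RPKM in W1 on day 2, at 61.2 and 132 RPKM in its 2 libraries of day 4, at 86.3 RPKM on day 8 and at 53.7 RPKM on day 12 in low glucose. Dab2, the adaptor that couples the receptor to clathrin, went from 17.2 RPKM on day 2 to 157 RPKM on day 12 in the same line. Amn, the membrane anchor of Cubn, was at 6.31 RPKM on day 2 and peaked at 67.6 RPKM on day 8. Thus Cubn and Amn were past their highest level on day 12 in W1, whereas the secreted carriers were at theirs.

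When the first low-glucose day at which W1 reached 10% of its own highest level was taken for each gene, 6 genes did so on day 2 (Apoa2, Apoe, F5, Fetub, Cubn, Dab2), 7 on day 4 (Apoa4, Apob, Apoc3, Mttp, Fgg, Plg, Amn), 16 on day 8 and 4 on day 12 (Alb, Kng1, Itih2, Igfbp1). The remaining 3 (Apoh, Ahsg, C3) did not reach 1 RPKM in W1 at low glucose. Apolipoproteins were spread over days 2, 4 and 8 by this measure. Apob, the structural protein of large lipoproteins, stood at 0.751, 14.3, 65.9 and 106 RPKM on days 2, 4, 8 and 12, and Mttp, which loads lipid onto it, at 2.00, 19.3, 44.3 and 47.7 RPKM. Of the 7 carriers 6 came on day 8 and Alb on day 12. Afp, the albumin of the fetus, was at 0, 6.82, 284 and 1527 RPKM, and Rbp4, the retinol carrier, at 0.703, 4.98, 144 and 974 RPKM on those days.

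**Figure D2:**
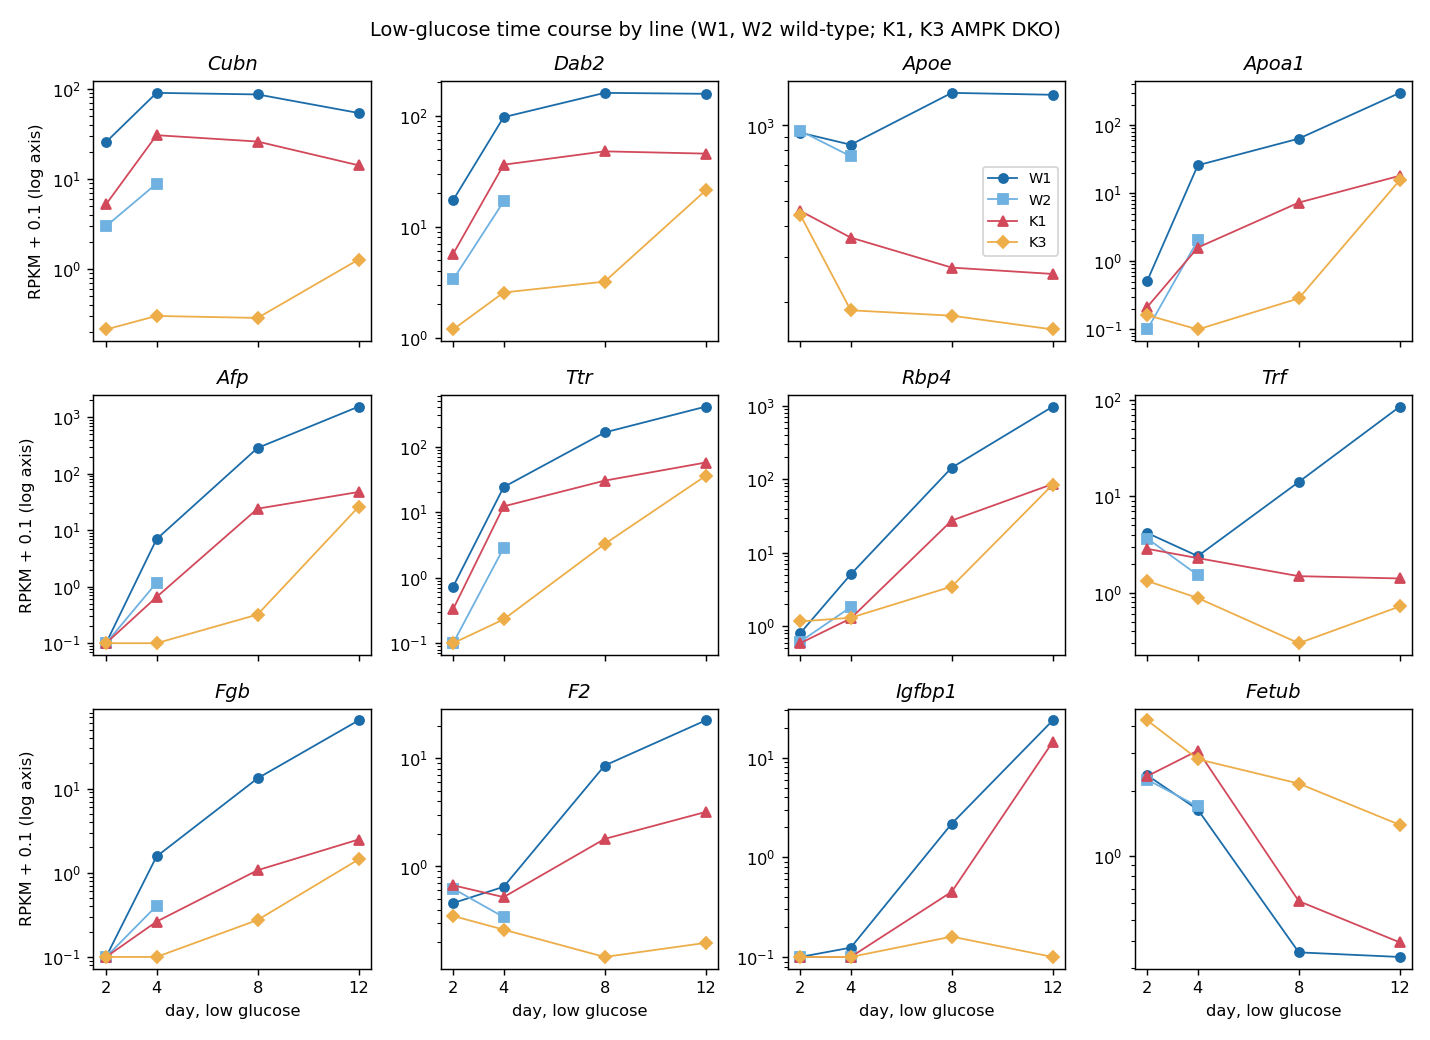
Level of 12 of the genes over days 2, 4, 8 and 12 in low glucose, as RPKM + 0.1 on a log axis, with 1 line per cell line; W2 had no label-matched library after day 4. W1 (dark blue circles) is above both DKO lines at day 12 in each panel except Fetub, and K1 (red triangles) is above K3 (yellow diamonds) at day 8 in each panel except Fetub.

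From day 2 to day 12 in low glucose, 28 of the 33 genes that passed the filter on low values rose in WT and 1 fell (limma on log2(RPKM + 1), adjusted p at most 0.05 over 14670 genes), where 30% of all genes rose and 24.4% fell. The filter asked for 1 RPKM in 2 values, and Apoh, Ahsg and C3 did not pass it. Afp rose by 10.58 ± 1.34 on the log2 scale (SE, adjusted p = 4.345e-05), from 0 RPKM in both W1 and W2 to 1527 RPKM in W1. Rbp4 rose by 9.24 ± 0.84 (adjusted p = 4.406e-06), from 0.703 and 0.519 to 974 RPKM. Ttr, the thyroid hormone carrier that travels with Rbp4, rose by 8.32 ± 1.44 (adjusted p = 0.0004279), from 0.63 and 0 to 406 RPKM. The gene that fell was Fetub, a fetuin that inhibits proteases, from 2.26 and 2.15 RPKM to 0.238 RPKM (log2 change -1.37 ± 0.40, adjusted p = 0.01232). Apoe, the ligand of lipoprotein receptors, was at 936 and 952 RPKM on day 2 and at 1324 RPKM on day 12, a change within the spread (0.49 ± 0.44, adjusted p = 0.3743). The day 12 value rests on W1 alone, and with all 42 libraries under their headings 0 members were called.

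The DKO lines were compared with WT at low glucose day 12 by role, with W1 on one side and K1 and K3 on the other. Of the 33 genes tested, 23 were lower in DKO, where 13% of all genes were lower, and no call went the other way. The median log2 change was -2.72 over those 33 and 0.16 over all 14670. Of the 33, 4 (Apoc3, Fga, Serpind1 and Kng1) reached 1 RPKM in no matched DKO library, so that they passed the filter through WT libraries alone and had to differ, and their 4 calls are no support for the count. Alb, Ambp, Fgg, F10, Plg and Vtn reached 1 RPKM in 1 matched DKO library, K3 at high glucose day 12, where the filter asked for 2 values. They too passed only with WT values, and their calls, all lower, are no support for the count either. RNA came from whole embryoid bodies, so that fewer cells of a type and less RNA per cell cannot be told apart.

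Among carriers, 6 of 7 fell. Afp was at 1527 RPKM in W1, 47.1 in K1 and 25.7 in K3, so that the DKO mean was 2.38% of WT (log2 change -5.41 ± 1.34, adjusted p = 0.008743). Trf, the iron carrier transferrin, was at 85.2 RPKM in W1, 1.30 in K1 and 0.616 in K3, which is 1.13% of WT (-5.48 ± 0.72, adjusted p = 0.0002839). Rbp4 stood at 974 RPKM in W1 against 86.1 and 84.6 RPKM in K1 and K3 (-3.50 ± 0.84, adjusted p = 0.007454), a change that turned to 0.55 (adjusted p = 0.9486) with all 42 libraries under their headings. These 3 genes separated W1 from both DKO lines by more than the DKO lines differed from each other. Ttr was at 406 RPKM in W1, 56.9 in K1 and 35.6 in K3, and its change of -3.14 ± 1.44 did not pass (adjusted p = 0.109) and was 1.09 (adjusted p = 0.8852) under the headings. Alb, Ambp and Hpx (albumin, a binder of small lipophilic molecules and the haem carrier) were low genes, at 1.76, 8.16 and 16.4 RPKM in W1 and at most 0.141, 0.907 and 2.05 RPKM in the DKO lines.

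Of the apolipoproteins and assembly factors, 6 of the 9 tested fell. Apoa1, the main protein of high-density lipoprotein, was at 298 RPKM in W1, 17.98 in K1 and 15.5 in K3 (-4.08 ± 1.29, adjusted p = 0.02825). Apoa2, also of high-density lipoprotein, was at 181 RPKM in W1 against 11.9 and 6.84 RPKM (-4.17 ± 0.62, adjusted p = 0.0005765). Apoc2, the cofactor of lipoprotein lipase, was at 65.1 RPKM in W1, 11.6 in K1 and 0.527 in K3 (-3.91 ± 1.41, adjusted p = 0.04823), so that K3 was further below K1 than K1 was below W1. Apoe was at 1324 RPKM in W1 and at 257 and 155 RPKM in K1 and K3 (-2.72 ± 0.44, adjusted p = 0.0009708). Apob, Mttp and Apom were at 9.80%, 16.8% and 10.5% of WT without passing (adjusted p of 0.05928, 0.06052 and 0.07411).

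Of the 10 clotting and clot-removal genes 9 fell, including Fga, Serpind1 and Kng1, which passed the filter through WT alone. F10, Fgg and Plg, also among the 9, needed WT values to pass. Fgb, the beta chain of fibrinogen, was at 64.6 RPKM in W1, 2.39 in K1 and 1.34 in K3 (-4.54 ± 0.56, adjusted p = 0.0002199). Fga, the alpha chain, was at 10.1 RPKM in W1, 0.149 in K1 and 0.036 in K3, and Fgg, the gamma chain, at 4.61 against 0.17 and 0.126 RPKM. F2, prothrombin, was at 22.2 RPKM in W1, 3.08 in K1 and 0.099 in K3 (-3.46 ± 0.67, adjusted p = 0.002543). The DKO means of the 3 fibrinogen chains, Fga, Fgb and Fgg, were at 0.91%, 2.89% and 3.25% of WT. F5, a cofactor of prothrombin activation, was at 0.579 RPKM in W1 and 0.154 and 0.102 RPKM in the DKO lines (-0.49 ± 0.21, adjusted p = 0.09372).

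Among the other secreted proteins 2 of the 4 tested fell, namely Vtn (vitronectin, an adhesion protein) and Itih2 (a hyaluronan-binding inhibitor chain). Igfbp1, a binder of insulin-like growth factors, was at 23.6 RPKM in W1, 14.3 in K1 and 0 in K3, and did not pass (-2.65 ± 1.03, adjusted p = 0.0645). Of the 3 uptake genes 0 passed in limma, and 0 had an unadjusted p under 0.05, although each DKO line was below W1 for each gene. Amn was at 44.5 RPKM in W1, 9.94 in K1 and 0.335 in K3 (-3.57 ± 1.82, adjusted p = 0.1473). Cubn was at 53.7, 14.0 and 1.18 RPKM (-3.26 ± 2.23, adjusted p = 0.2784), and Dab2 at 157, 45.3 and 21.1 RPKM (-2.30 ± 1.62, adjusted p = 0.289). The standard errors of Amn, Cubn and Dab2 were the widest of the 33 genes.

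Leaving out W2, K1 or K3 in turn gave between 19 and 28 calls at low glucose day 12. Of the 28, found without K1, 1 was higher in DKO. W1, the only WT line there, could not be left out. W2 has no library in this comparison, so that leaving it out changed only the filter and the estimate of the spread. Of the 23 genes, 14 were called in each of these fits and under the 5 processing alternatives. Fga, Alb, Ambp, F10, Fgg and Vtn are among the 14, with the limits of the filter given above. Where libraries were left out by Prkaa2 and Txnip alone the count was 14, and with all 42 libraries under their headings no member was called.

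**Figure D3:**
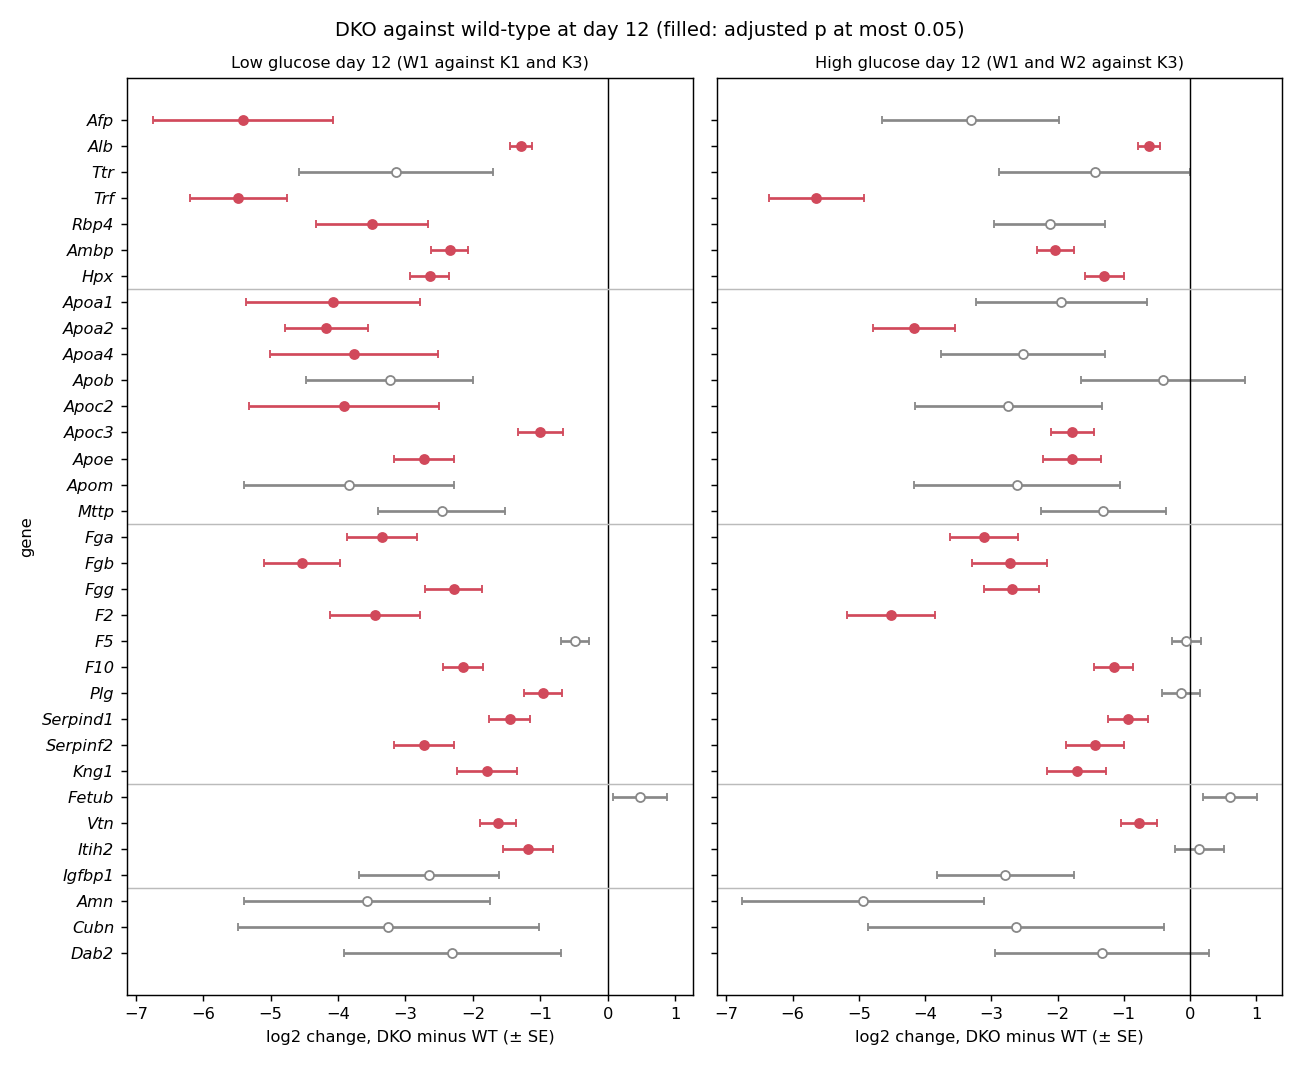
Log2 change of DKO minus WT (± SE, limma on log2(RPKM + 1)) for the 33 genes tested, at low glucose day 12 (left) and high glucose day 12 (right), with filled points for an adjusted p of at most 0.05 and grey lines between roles. Fetub is the one gene to the right of 0 on the left side; on the right side Trf, Amn, F2 and Apoa2 lie beyond -4 while Apob, F5, Plg and Itih2 lie near 0.

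At high glucose day 12, W1 and W2 were set against K3. Of the 33 genes tested, 16 were lower in DKO, against 12% of all genes, with a median of -1.79 against 0.10 over all genes, and the 16 include the 4 genes that passed the filter through WT alone. The 16 also include Alb, Ambp, Fgg, F10 and Vtn, which needed WT values to pass, so that these calls are no support for the count. K3 was unevenly below WT. Trf was at 83.7 and 169 RPKM in W1 and W2 and at 1.40 RPKM in K3 (-5.64 ± 0.72, adjusted p = 0.0004144). F2 was at 30.6 and 47.5 RPKM in WT and 0.707 RPKM in K3 (-4.51 ± 0.67, adjusted p = 0.0008691). Apoa2 was at 195 and 395 RPKM in WT and 14.5 RPKM in K3 (-4.17 ± 0.62, adjusted p = 0.0008901).

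Other members were closer to WT in the same K3 library. Apob was at 104 and 193 RPKM in W1 and W2 and at 107 RPKM in K3 (-0.41 ± 1.23, adjusted p = 0.8262). Plg, plasminogen, was at 2.16 and 4.03 RPKM in WT and 2.63 RPKM in K3 (-0.13 ± 0.29, adjusted p = 0.7483). Itih2 was at 2.19 and 5.88 RPKM in WT and 4.16 RPKM in K3 (0.14 ± 0.37, adjusted p = 0.8003). For Apob, Plg and Itih2, then, the K3 value fell between the 2 WT values, while for Trf, F2 and Apoa2 it was below both by more than 10 times. Expressed as the DKO level in percent of the WT mean, the 32 genes with WT at 1 RPKM or more ranged from 1.11% (Trf) to 103% (Itih2), with a median of 19.6%, and 6 of them were at 50% or more. At low glucose day 12 the range over 31 genes was 0.91% (Fga) to 30.4% (Igfbp1) with a median of 9.33%, and none was at 50%. Whether the 2 glucose levels differ in this respect was not tested, and the lines behind them differ.

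Carriers at high glucose day 12 were mixed. Afp was at 1366 and 2712 RPKM in W1 and W2 and 193 RPKM in K3 (-3.31 ± 1.34, adjusted p = 0.0759), and Rbp4 at 2288 and 2559 RPKM against 557 RPKM (-2.12 ± 0.84, adjusted p = 0.07127). Ttr was at 670 and 875 RPKM against 282 RPKM (-1.44 ± 1.44, adjusted p = 0.4672). These 3 did not pass, although K3 was below both WT lines in each. The carriers that passed, beside Trf, were Alb, Ambp and Hpx. The 3 fibrinogen chains fell together, Fgb from 120 and 158 RPKM to 20.1 RPKM (-2.72 ± 0.56, adjusted p = 0.004482), Fga by 3.11 ± 0.52 and Fgg by 2.69 ± 0.42 on the log2 scale. Apoa1 was at 444 and 860 RPKM against 160 RPKM (-1.94 ± 1.29, adjusted p = 0.2696).

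None of the 3 uptake genes passed at high glucose day 12. Amn was at 54.7 and 62.6 RPKM in W1 and W2 and at 0.946 RPKM in K3 (-4.93 ± 1.82, adjusted p = 0.05646). Cubn was at 58.0 and 80.9 RPKM in WT and at 10.2 RPKM in K3, and Dab2 at 278 and 292 RPKM in WT and 113 RPKM in K3. The DKO level was 1.61%, 14.7% and 39.5% of WT for Amn, Cubn and Dab2 there, and 0.69%, 0.66% and 8.05% at high glucose day 8, and differences between these genes were not tested. The count of 16 became 6 without W2, 9 with a pseudocount of 0.1 and 5 with all libraries under their headings. It was 27 (26 lower, 1 higher) where libraries were left out by Prkaa2 and Txnip alone. That set adds the library headed K1 high glucose day 12, which had K3 line markers, Afp at 0 RPKM and 6 members at 1 RPKM or more. Its part in the count was not tested. Under each processing alternative and without W1, W2 or K1, 5 genes (Fga, Ambp, Fgg, Trf and Apoa2) were called. Of these, Fga passed the filter through WT alone, and Ambp and Fgg needed WT values to pass. K3, the only DKO line there, could not be left out. K1 has no library in this comparison, so that leaving it out changed only the filter and the estimate of the spread.

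At day 8 the same direction was present in both media. In low glucose 16 of 33 genes were lower in DKO, against 7.94% of all genes, and in high glucose 18 of 33, against 7.38%. Any calls of Apoc3, Fga, Serpind1 or Kng1, which passed the filter through WT alone, are no support for these counts. The same holds for Alb, Ambp, Fgg, F10, Plg and Vtn, which needed WT values to pass. Afp was at 284 RPKM in W1, 23.8 in K1 and 0.221 in K3 in low glucose (-5.69 ± 1.34, adjusted p = 0.01463). In high glucose Afp was at 548 and 236 RPKM in W1 and W2 and at 3.45 RPKM in K3 (-6.34 ± 1.34, adjusted p = 0.01246). Apoc2 showed the widest change at high glucose day 8, with 297 and 181 RPKM in WT and 0.332 RPKM in K3 (-7.45 ± 1.41, adjusted p = 0.00827).

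Further genes at day 8 followed. Trf in low glucose was at 14.0 RPKM in W1 against 1.38 and 0.196 RPKM in K1 and K3 (-3.15 ± 0.72, adjusted p = 0.01289), and in high glucose at 63.7 and 16.2 RPKM in WT against 0.209 RPKM in K3 (-4.79 ± 0.72, adjusted p = 0.003875). Apoa1 in low glucose was at 63.4 RPKM against 7.20 and 0.187 RPKM (-4.37 ± 1.29, adjusted p = 0.03589). Ttr, at 164 RPKM in W1 against 30.1 and 3.16 RPKM in low glucose, did not pass there (-3.86 ± 1.44, adjusted p = 0.07824), nor in high glucose (-3.57 ± 1.44, adjusted p = 0.108). F5 in high glucose was at 1.83 and 1.11 RPKM in WT and 2.18 RPKM in K3. The low-glucose count of 16 was 4 without W2, 5 without K3 and 3 where libraries were left out by Prkaa2 and Txnip alone, and the high-glucose count of 18 was 3 without W1, 5 without W2 and 8 by Prkaa2 and Txnip alone. Under their headings, all 42 libraries gave no call at day 8 in either medium. W2 has no matched library at low glucose day 8, so that leaving it out changed only the filter and the estimate of the spread there.

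Before day 8, 1 call was made among the members, that of Apoe on day 4. At low glucose day 2, 0 of 33 members passed in limma, 1 had an unadjusted p under 0.05, and 0.143% of all genes were lower in DKO. Apoe was at 936 and 952 RPKM in W1 and W2 and at 458 and 442 RPKM in K1 and K3 on that day (-1.07 ± 0.36, adjusted p = 0.5216). At low glucose day 4 Apoe was the 1 member called, where 1.29% of all genes were lower: it stood at 863, 815 and 755 RPKM in the 3 WT libraries and at 359 and 185 RPKM in K1 and K3 (-1.62 ± 0.36, adjusted p = 0.04648). Apoa1 had a wider change on that day without passing (-2.49 ± 1.06, adjusted p = 0.2821). The call of Apoe at day 4 was lost without W1, W2 or K3, with no filter on low values, where libraries were left out by Prkaa2 and Txnip alone, and with all libraries under their headings. Over all days and media, Apoe lay between 561 and 2299 RPKM in the 13 matched WT libraries. In the 11 matched DKO libraries it lay between 155 and 526 RPKM. Apoe was picked for this after its values were seen, and the share of all genes that part in this way was not counted. Apoe is expressed by many cell types and is no marker of visceral endoderm alone.

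From day 2 to day 12 in low glucose, 10 of 33 genes rose and 2 fell in DKO, where 33.4% of all genes rose and 17.5% fell. Neither count was thus above the background. Afp rose in DKO by 5.16 ± 1.09 (adjusted p = 0.001868), from 0 in K1 and K3 to 47.1 and 25.7 RPKM. Rbp4 rose by 5.62 ± 0.68 (adjusted p = 3.462e-05), from 0.488 and 1.06 to 86.1 and 84.6 RPKM. Ttr rose by 5.37 ± 1.18 (adjusted p = 0.002348) and Apoa1 by 4.03 ± 1.06 (adjusted p = 0.007127). Fetub fell, and so did Apoe, from 458 and 442 RPKM to 257 and 155 RPKM (-1.17 ± 0.36, adjusted p = 0.01698). Trf, which rose 4.17 ± 0.72 in WT (adjusted p = 0.0004074), was at 2.74 and 1.22 RPKM on day 2 and at 1.30 and 0.616 RPKM on day 12 in K1 and K3 (-0.58 ± 0.59, adjusted p = 0.4341). Without K1 the DKO count of 12 was 7, where libraries were left out by Prkaa2 and Txnip alone it was 5, and under the headings it was 1.

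The difference between the genotypes in this change was itself tested, in the same fit. It rests on the same day 12 values as the comparison of DKO with WT there, and is no independent result. For Afp and Fgb, at 0 RPKM in all 4 lines on day 2, it equals the day 12 difference. It passed for 15 of 33 genes, each with a smaller rise or a fall in DKO, where 6.09% of all genes passed in that direction. The 15 include Fga and Serpind1, which passed the filter through WT alone and are no support for the count. Nor are Alb, Ambp, Fgg, F10 and Vtn, also among the 15, which needed WT values to pass. The difference was -5.41 ± 1.72 on the log2 scale for Afp (adjusted p = 0.04725), -4.75 ± 0.93 for Trf (adjusted p = 0.006679), -4.54 ± 0.73 for Fgb (adjusted p = 0.002765), -4.06 ± 0.80 for Apoa2 (adjusted p = 0.007086) and -3.62 ± 1.08 for Rbp4 (adjusted p = 0.03753). Ttr (-2.94 ± 1.86, adjusted p = 0.2872) and Apoa1 (-3.95 ± 1.67, adjusted p = 0.1153) did not pass. The carriers of iron and retinol and the fibrinogen chain Fgb were thus among the genes whose time course differed by genotype. So was Fgg, with the limit given above. The uptake genes, with differences from -1.06 (Dab2) to -2.34 (Amn), were not shown to differ. The count was 8 without W2, 5 where libraries were left out by Prkaa2 and Txnip alone, and 0 under the headings, where the value for Rbp4 turned to 0.43 (adjusted p = 0.9958). Hpx, Fgb and, with the limits given above, Ambp, F10 and Fga were called under each processing alternative and without W2, K1 or K3. W1, the only WT line at low glucose day 12, could not be left out.

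The lines of one genotype were not alike. On low glucose day 2, Cubn was at 25.5 RPKM in W1 and 2.89 RPKM in W2, and Dab2 at 17.2 and 3.25 RPKM. On day 4, Cubn was at 61.2 and 132 RPKM in the 2 libraries of W1 and at 8.76 RPKM in W2, and Apoa1 at 20.2 and 32.5 RPKM against 1.94 RPKM. W2 was thus behind W1 in low glucose at these early days, yet at high glucose day 12 it had the higher Afp, Apoa1 and Igfbp1 (128 against 57.5 RPKM).

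Between the DKO lines, K1 was ahead of K3 in low glucose. On day 8 Cubn was at 25.8 RPKM in K1 and 0.194 RPKM in K3, Afp at 23.8 and 0.221 RPKM, and Apom, a lipocalin of high-density lipoprotein, at 34.8 and 0.26 RPKM. By day 12 Afp, Rbp4, Apoa1 and Apob (11.2 and 9.56 RPKM) were within a factor of 2 between the lines, whereas larger gaps were present for Amn, Cubn, Apoc2, F2 and Igfbp1. K1 thus had Cubn and Dab2 (30.4 and 36.01 RPKM on day 4), above the levels of W2 on that day, while its Afp on day 12 stayed far below that of W1. With 1 or 2 libraries per line and condition, differences between lines were not tested.

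Low and high glucose were compared over days 8 and 12. In WT, with W1 alone in low glucose and W1 and W2 in high, 4 of 33 genes were lower in low glucose (Fgg, Fgb, Vtn, Apoc3), where 10.5% of all genes were lower, so the share is close to the background. Fgg passed with -1.63 ± 0.30 (adjusted p = 0.004247): within W1 it was at 1.74 and 4.61 RPKM on days 8 and 12 in low glucose and at 10.8 and 13.4 RPKM in high glucose. Afp (-0.34 ± 0.94), Ttr (-0.98 ± 1.02), Trf (-0.82 ± 0.51) and Apoa1 (-1.59 ± 0.91) did not pass. The WT count was 2 without W2, 7 without K3, 2 by Prkaa2 and Txnip alone and 1 with a pseudocount of 0.1.

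In DKO, with K1 and K3 in low glucose and K3 alone in high, 7 of 33 genes were lower in low glucose (Alb, F10, F5, Fgb, Hpx, Plg, Vtn), where 4.9% of all genes were lower. Among matched DKO libraries, Alb, F10, Plg and Vtn reached 1 RPKM only in K3 at high glucose day 12 (1.52, 2.04, 2.63 and 4.15 RPKM). Their calls thus lean on 1 library and on low levels. Fgb was at 0.967 and 0.176 RPKM (K1 and K3, day 8) and 2.39 and 1.34 RPKM (day 12) in low glucose, and at 2.44 and 20.1 RPKM in K3 in high glucose (-2.04 ± 0.40, adjusted p = 0.01008). Within K3 on day 12, Afp was at 25.7 RPKM in low and 193 RPKM in high glucose, Rbp4 at 84.6 and 557 RPKM, and Apob at 9.56 and 106.5 RPKM. Without K1, so within K3 alone, 11 genes were called, 11 with the line as a block, 1 by Prkaa2 and Txnip alone, and 0 under the headings. Whether glucose acts differently in the genotypes was not tested.

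Several lists of other genes were measured beside the members. Endoderm transcription factors were at summed levels of 274 to 432 RPKM in the WT libraries of day 12 and 87.6 to 129 RPKM in the DKO libraries, and 7 of 11 tested were lower in DKO at low glucose day 12 (13% of all genes) and 2 of 11 at high glucose (12% of all genes), the latter near the background. Hnf4a, which drives many of these secreted genes in visceral endoderm and liver, was at 27.4 RPKM in W1 at low glucose day 12 and at 3.79 and 1.62 RPKM in K1 and K3 (-3.00 ± 0.89, adjusted p = 0.02064). At high glucose day 12 Hnf4a was at 34.7 and 38.4 RPKM in WT and 11.2 RPKM in K3. Foxa3, another factor of this list, was also lower at low glucose day 12 (-2.28 ± 0.32, adjusted p = 0.0003962).

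Genes of the liver after birth were scarce. Of 12 genes of mature hepatocytes, 6 (G6pc, Cyp2e1, Cyp3a11, Cyp7a1, Ugt2b1, Hpd) were at 0 in all 6 matched libraries of day 12. Some members that are abundant in adult plasma were also low: the highest matched values were 3.40 RPKM for Alb, 0.056 RPKM for Apoh (beta-2-glycoprotein), 1.06 RPKM for Ahsg (fetuin-A) and 0.98 RPKM for C3 (complement). Of 32 further plasma proteins, 14 passed the filter, 7 were lower and 2 higher in DKO at low glucose day 12, where 13% and 22.3% of all genes were, so that the share of higher genes was not above the background. Lower were Cfb and Cfi of complement (-2.43 ± 0.33 and -3.03 ± 0.42), and higher Serpinf1 (1.60 ± 0.47) and Serping1 (0.94 ± 0.31). Of 19 genes of uptake and lipid handling, 8 were lower in the same comparison, among them Fabp2, a fatty acid binding protein (-3.01 ± 0.28, adjusted p = 4.084e-05), and Soat2, which esterifies cholesterol (-3.65 ± 0.96, adjusted p = 0.01192).

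Some markers of other cells differed between the genotypes as well. Parietal endoderm genes, which make the basement membrane beneath the trophoblast, summed to between 3756 and 10535 RPKM in WT and between 589 and 841 RPKM in DKO at day 12, with 10 of 11 tested lower in DKO at low glucose and 3 of 11 at high glucose, against 13% and 12% of all genes. Pluripotency genes summed to between 81.2 and 151 RPKM in WT and between 280 and 537 RPKM in DKO. At low glucose day 12, 8 of 10 were higher in DKO, where 22.3% of all genes were, and 1 was lower. At high glucose 7 of 10 were higher, where 20.2% of all genes were, and 1 was lower. Mesoderm genes summed to between 137 and 185 RPKM in WT and 163 and 288 RPKM in DKO. In each medium 6 of 10 were higher in DKO, against 22.3% of all genes at low and 20.2% at high glucose. Genes of definitive endoderm and gut summed to between 126 and 142 RPKM in WT and between 117 and 302 RPKM in DKO. At low glucose day 12, 1 of the 10 tested was higher and 2 were lower in DKO (Sox2, and Foxa2 and Sox17, which are also in other lists here). Of all genes 22.3% were higher and 13% lower there, so that these counts are near or below the background. At high glucose 6 of 10 were higher, where 20.2% of all genes were, and 0 lower, with a median of 2.44. Those 6 were Eomes, Cxcr4, Cer1, Sox2, Trh and Pyy, of which Pyy, a gut hormone, changed by 2.78 ± 0.38 (adjusted p = 0.0005768). Feeder and fibroblast genes summed to between 1228 and 2326 RPKM in WT and between 202 and 513 RPKM in DKO. Of these 4 of 8 were lower at low glucose, where 13% of all genes were. At high glucose 6 of 8 were lower and 1 higher, where 12% and 20.2% of all genes were. No defining marker of these 5 lists was at 0 in all day 12 libraries. The part of other cell types in the difference between genotypes was not tested.

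Many members lie in clusters on the chromosomes, and neighbours did not share a level. Alb and Afp are adjacent on chromosome 5 (mm10, 90460889 to 90476603 and 90490714 to 90508907, plus strand). In W2 at high glucose day 12 Afp was at 2712 RPKM and Alb at 3.40 RPKM. On chromosome 9 Apoa1, Apoc3 and Apoa4 stood at 860, 5.55 and 77.3 RPKM in that library, and on chromosome 3 Fga, Fgb and Fgg stood at 24.0, 158 and 25.8 RPKM, although the 3 fibrinogen chains enter 1 protein in equal numbers. On chromosome 7 Apoe and Apoc2 stood at 2050 and 198 RPKM.

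Kng1 and Fetub on chromosome 16 (kininogen and a fetuin) changed in opposite directions in WT. In W1 in low glucose Kng1 was at 0.068 RPKM on day 2 and 2.995 RPKM on day 12 (1.92 ± 0.44, adjusted p = 0.002939), and Fetub fell as given above. Ahsg, the other fetuin beside them, was at 0.596 and 0.32 RPKM on these days and was not tested. Kng1 was lower in DKO at low glucose day 12 (-1.79 ± 0.44, adjusted p = 0.008837), and Fetub, at 0.304 and 1.29 RPKM in K1 and K3, was not shown to differ (0.48 ± 0.40, adjusted p = 0.3845). No member lies on chromosome 6.

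**Figure D4:**
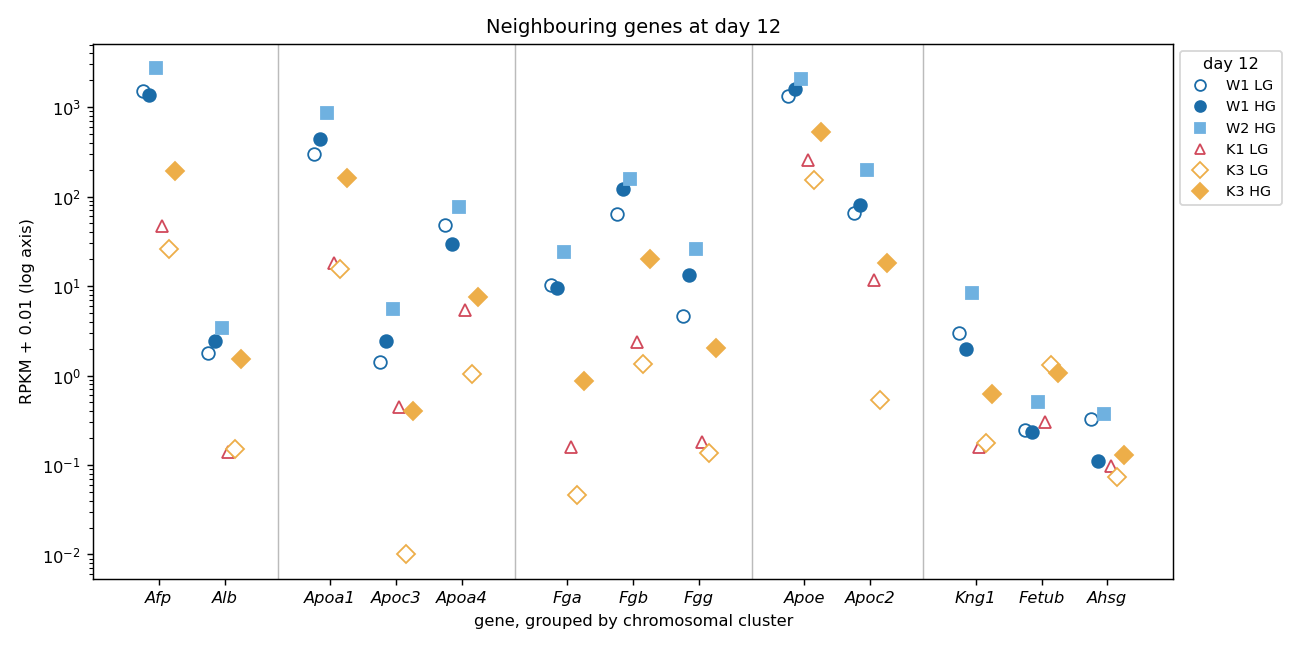
Levels of 13 genes in 5 chromosomal clusters in the 6 label-matched libraries of day 12, as RPKM + 0.01 on a log axis; blue symbols are wild-type and red or yellow symbols DKO, filled for high and open for low glucose. Afp and Alb differ by more than 10 times in each library, and the wild-type symbols lie above the DKO symbols except for Fetub and for Ahsg, whose levels are all below 1 RPKM.

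Promoters were read for 31 of the 36 members from a RefSeq table (GRCm38.p6, 250 bases before each start). A FOXA core, TGTTTAC, was present before a start of 4 of these 31 genes (12.9%: Rbp4, Apoa2, Apoh and Fetub) and of 3.54% of all 27025 genes in the table. A GATA site, AGATAA, was present for 2 of 31 (6.45%) against 11.4%, and the HNF4 core CAAAGTCCA for 0 of 31 against 0.451%. The motifs were searched on both strands, and a base could count for more than 1 motif. A match is a description of the letters and not a bound site.

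The 150 bases before the start of Apoa2 and Apoh follow, with the FOXA core in capitals. They were chosen because both windows hold that core while the levels of these apolipoprotein genes lie far apart, with highest values of 395 RPKM for Apoa2 and 0.063 RPKM for Apoh over all 42 libraries. The windows lie at chr1:171224904-171225053 and chr11:108395147-108395296, both on the plus strand.
Apoa2: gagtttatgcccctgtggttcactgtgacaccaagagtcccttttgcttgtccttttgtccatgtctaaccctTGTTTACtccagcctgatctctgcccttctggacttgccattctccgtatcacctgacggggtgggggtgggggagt
Apoh: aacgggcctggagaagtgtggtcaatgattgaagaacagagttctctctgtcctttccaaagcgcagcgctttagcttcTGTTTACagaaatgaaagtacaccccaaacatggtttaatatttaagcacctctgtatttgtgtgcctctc
Counted from the start, the core begins at position -77 in Apoa2 and -71 in Apoh. Its presence is a feature of the letters, and nothing on binding was measured.

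Reads of some members cannot be told from those of other genes. Exons of 11 members overlap exons of another annotated gene (GENCODE vM21, mm10), 5 of these with a protein-coding partner, and strand was not recorded. Trf and Apoc2 share exons with read-through models on the same strand, and the values of Mttp, Plg and Apoh may hold reads of Trmt10a, Slc22a3 and Prkca. Kng1 has a near-identical copy in the mouse genome, and its level is uncertain for that reason.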

How the data were processed

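The authors deposited RPKM values of 24225 genes in 42 libraries, with mm10 coordinates and a transcript length per gene, per the file headers. HOMER, STAR (2.4.0k), edgeR (3.6.8, under R 3.1.1) and FastQC (0.11.2) are listed in the submitters' processing notes, along with GRCm38 and mm10, but not what each was used for. The handling of reads with several positions was not given in the sources used here. Low values of genes of 200 to 1500 nt came out as whole reads, within 0.1 read, for 100% of those examined, which gave each library's depth (10500000 to 25500000 reads, median 15425000). No count model was run, since RPKM values are not counts.

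Columns were assigned by heading. Of 42 libraries, 24 matched the markers of the heading's line (Ddx3y under 2 RPKM for K1, 2 to 5 for W1, 5 to 10 for W2, over 10 for K3; Meg3 under 1 RPKM for W2 only) and medium (Txnip at 5 RPKM), and 18 were left out. Matched columns under one heading (6 headings of day 4 stood over 2 columns) were averaged on the log scale. Genes with 1 RPKM in at least 2 values were kept (14670). limma 3.58.1 (R 4.3.3) fitted one mean per genotype, day and medium to log2(RPKM + 1) of 23 values, moderating variances along their trend with expression, and 9 residual degrees of freedom remained. The pseudocount of 1 understates changes of low genes. P-values were adjusted by Benjamini-Hochberg over the genes tested, with a threshold of 0.05, and measure the spread between these lines and samples. An arm with 1 line was assumed to vary like the others.

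The line is the cell line shared by samples of a genotype, and W1 and K1 share only a number. With the line as a random block, the correlation within a line was 0.195. Alternatives were all libraries as labelled, matching by Prkaa2 and Txnip alone, a pseudocount of 0.1, no filter, quantile and median-of-ratios scaling, the block, and each line left out. Fold changes are given for Afp, Ttr, Apoa1 and Trf and for up to 4 further called members of the widest change per comparison, and other members were named after their values were seen. The members, lists and tests were chosen with earlier results of these data known. Promoters and motifs came from RefSeq (GRCm38.p6). Figures used Python 3.11.15 and matplotlib 3.10.9.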

Additional observations from a re-analysis of the deposited data

Results flagged for a closer look

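The change from day 2 to day 12 in low glucose differed between the genotypes, by the interaction term in limma, for 15 members. The term rests on the same day 12 values as the comparison of DKO with WT there, and is no independent result. The difference (DKO minus WT, log2) was -5.41 for Afp, -4.75 for Trf, -4.54 for Fgb, -4.06 for Apoa2, -3.62 for Rbp4, -3.42 for F2, -3.35 for Fga, -2.75 for Hpx, -2.72 for Serpinf2, -2.41 for Ambp, -2.26 for Fgg, -2.15 for F10, -1.63 for Vtn, -1.49 for Serpind1 and -1.26 for Alb. The low genes among these, such as Alb and Serpind1, did not exceed 3.41 RPKM in a matched library, and the pseudocount bears on their size. Fga and Serpind1 passed the filter through WT libraries alone, and Alb, Ambp, Fgg, F10 and Vtn needed WT values to pass.

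Libraries that were left out of the comparisons, because their headings went against the line markers or Txnip, held members at levels above the highest sum in a matched library of days 0 to 4, 1283 RPKM. The library headed K3 ESC summed to 9944 RPKM, with Afp at 3043 RPKM and 31 members at 1 RPKM or more. Against its heading, it had W2 line markers, Prkaa2 at 18.1 RPKM and Txnip at 2.18 RPKM. The library headed W2 ESC summed to 3483 RPKM, with Afp at 240 RPKM and Pou5f1, a pluripotency gene, at 31.2 RPKM. Its Txnip was at 0.997 RPKM, against the high glucose of its heading. One of the 2 libraries headed K1 high glucose day 4 summed to 1532 RPKM, with Afp at 15.2 RPKM. This library had W1 line markers and Prkaa2 at 5.01 RPKM. The library headed W1 high glucose day 2, which had W2 line markers, summed to 1528 RPKM, of which Apoe made up 95.6%. In the other direction, libraries headed W2 low glucose day 8, W2 low glucose day 12 and K1 high glucose day 12 had Afp at 0 RPKM and Pou5f1 at 445, 342 and 381 RPKM. Their line markers were those of K3, K1 and K3. No group of matched libraries held 4 samples, so single libraries were not tested as outliers within groups.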

How the results depend on the processing

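The numbers below are members past the threshold, in the order low glucose days 4, 8 and 12, high glucose days 8 and 12 (DKO against WT), day 12 against day 2 in WT and in DKO, the difference of these, and low against high glucose in WT and in DKO. As reported they were 1, 16, 23, 18, 16, 29, 12, 15, 4 and 7, and at low glucose day 2 the count was 0 under each alternative run. With all libraries as labelled they were 0, 0, 0, 0, 5, 0, 1, 0, 3 and 0, and 0, 3, 19 and 25 of 34 members had an unadjusted p under 0.05 at low glucose days 8 and 12 and high glucose days 8 and 12. In that fit Rbp4 turned from -3.50 to 0.55 at low glucose day 12 (adjusted p = 0.9486) and from -3.62 to 0.43 for the difference (adjusted p = 0.9958), and no other called member turned under an alternative run. With libraries left out by Prkaa2 and Txnip alone they were 0, 3, 14, 8, 27 (26 lower), 26, 5, 5, 2 and 1. A pseudocount of 0.1 gave 9 at high glucose day 12 and 1 for glucose in WT, and no filter gave 0 at low glucose day 4. With the line as a replicate block the count for glucose in DKO was 11, and no other count moved by over 1.5 times. That block changed 1 of 80 calls of named members. In the fit with all libraries as labelled, 9 headings went against Prkaa2, taken at 1 RPKM. Its WT groups of low glucose days 8 and 12 included the libraries headed W2, with Prkaa2 at 0.416 and 0.04 RPKM and Afp at 0 RPKM. The lowest Prkaa2 in a matched WT library was 1.32 RPKM. The cause of the shifts under these alternatives was not tested.

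Leaving out each line in turn gave 0 to 1 at low glucose day 4, 4 to 23 at low glucose day 8, 3 to 27 at high glucose day 8, 6 to 21 at high glucose day 12, 7 to 11 for time in DKO, 8 to 17 for the difference, 2 to 7 for glucose in WT and 6 to 11 for glucose in DKO, with 4 or 5 residual degrees of freedom. Fits without W1 gave no value for comparisons that rest on WT low glucose days 8 and 12, nor fits without K3 for those on DKO high glucose days 8 and 12. Where a line has no matched library in a comparison, leaving it out changed only the filter and the estimate of the spread. Quantile scaling moved the median of all genes from 0.10 to -0.08 for time in WT and from 0.19 to -0.06 in DKO, and median-of-ratios scaling from 0.17 to 0.05 for their difference. The members' medians went from 3.69 to 3.48, from 0.78 to 0.52 and from -2.41 to -2.53, so that for time in DKO the median fell by about as much as that of all genes. The share of higher genes among all calls went from 58% to 39.7% (low glucose day 8), 63.2% to 51.6% (day 12), 62.8% to 51.5% (high glucose day 12) and 4.55% to 14.8% (day 2) with median-of-ratios scaling, and from 55.1% to 45.1%, 65.6% to 45.4%, 66.9% to 53.6%, 28.7% to 50.5% and 27% to 39.8% with quantile scaling for time in WT, time in DKO, their difference, and glucose in WT and in DKO. Depth limits the low genes, and 2 lines per genotype limit all comparisons.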
